A study of Mus musculus with 4 samples.

Results

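The genes examined encode receptors for noradrenaline and the cAMP signalling proteins downstream of them, in the outer tissues around the femoral artery (FA), which consist mainly of perivascular adipose tissue (PVAT). They were chosen by name, as 9 symbols, and 8 of the 9 had a row among the 12661 genes of the deposited table. *Adrb1* was not analysed here. The animals were 11-week-old ovariectomized female C57BL/6 mice of wild type genotype, 2 of the libraries coming from vessels injured by insertion of a 0.38 mm wire and 2 from sham-operated vessels, all collected 48 h after the operation. Each library was prepared from 480 ng of total RNA. Whether a library stands for 1 mouse or for pooled tissue is not stated in the sources used here, so the p-values measure only the spread between these libraries.

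Noradrenaline released by sympathetic nerves acts on fat through opposed receptors. β-adrenergic receptors couple to the stimulatory G protein and raise cAMP, α2 receptors couple to the inhibitory G protein and lower it, and α1 receptors signal through calcium. Cyclic AMP is made by adenylyl cyclases and removed by phosphodiesterases, and it acts mainly through protein kinase A, which drives lipolysis and, in brown and beige adipocytes, thermogenic genes such as *Ucp1*. The study applied an agonist and an antagonist of the β3-adrenergic receptor to PVAT, and the comparison here describes the transcripts of this pathway in injured and sham-operated tissue that received neither.

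The deposited values are signed numbers on a log-like scale whose base is not stated. The median of each library lay near 0 (-0.006 to -0.003), and the zero point of a single gene is not stated. The values are therefore given in deposited units, without fold changes, and a value is compared between libraries and not between genes. Read depth and abundance are unknown for every library. Differences are injury minus sham with the standard error from limma, and p-values were adjusted by the Benjamini-Hochberg method over all 12661 genes with a threshold of 0.05. Of all genes tested, 7.43% were called in either direction. In bulk tissue, fewer cells of a type and less RNA per cell cannot be told apart.

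None of the 8 genes was called by limma at an adjusted p-value under 0.05. At an unadjusted p-value under 0.05 there were 3, *Adra1a*, *Adrb3* and *Adcy3*, against 29.5% of all genes. A threshold of 0.1 would call *Adra1a* higher and *Adrb3* lower, at which 18.3% of all genes were called, 9.21% higher and 9.09% lower. The differences ran from -1.47 for *Adra2a* to 1.09 for *Adra1a*, with 3 means higher and 5 lower after injury, a median of -0.15 and a median size of 0.44. Over all genes the median difference was 0.01 and the median size 0.25. Both injury libraries lay to one side of both sham libraries in 7 of the 8 genes, 3 of them higher and 4 lower, whereas 61.9% of all genes showed no overlap, 31.6% higher and 30.3% lower. With 2 libraries against 2, the smallest p-value of an exact permutation test is 0.333.

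**Figure D1:**
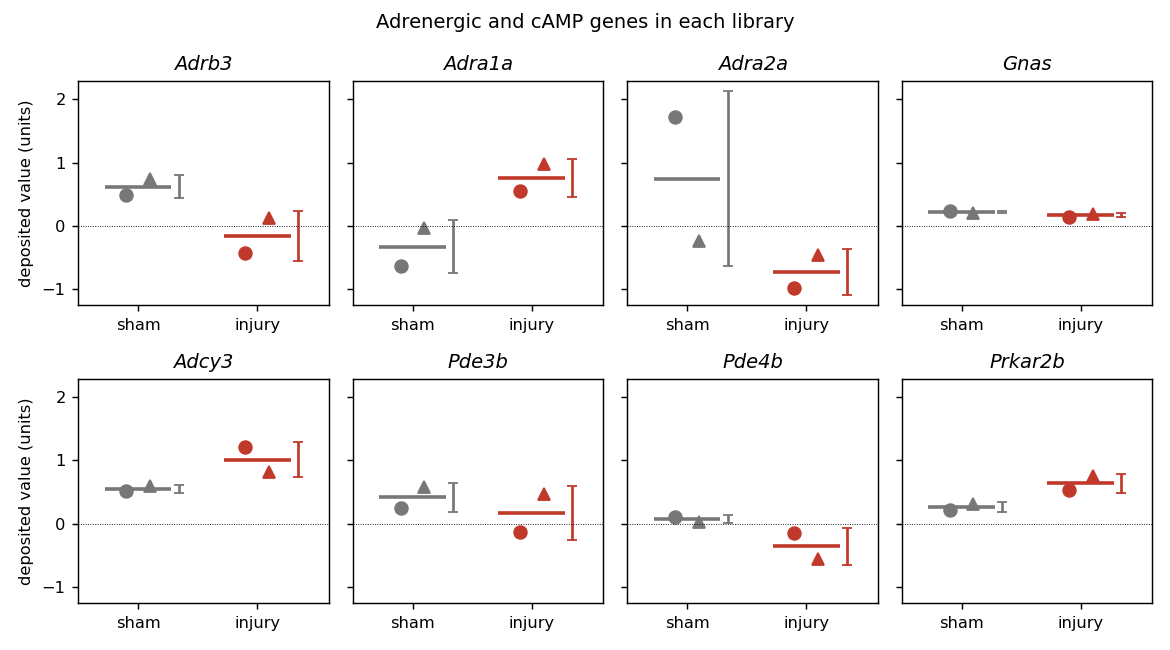
Deposited values of the 8 genes in each library (vertical axis, deposited units), with circles for replicate 1, triangles for replicate 2, thick lines for group means and bars for the SD (n = 2). The sham and injury points separate for every gene except *Pde3b*, and the widest spread is that of *Adra2a* after sham operation, with values of 1.73 and -0.23.

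Promoter sequences were examined because the transcription factor CREB, a target of protein kinase A, binds the cAMP response element TGACGTCA or its shorter core TGACG. RefSeq promoter windows of build GRCm38.p6, 300 bases long with 250 before the transcript start and 50 after it, were found for 5 of the 8 genes and numbered 13. *Adrb3*, *Adra1a* and *Pde3b* had no entry in this table. On both strands, no window of these genes held the full site, which occurred in 1.79% of all 32851 windows of the table. The core, which is also part of every full site, occurred in 5 of the 13 windows, from *Adra2a*, *Pde4b* and *Gnas*, and in 20.8% of all windows. A pair of the *Gnas* windows overlap and share a core, so the 5 windows hold 4 distinct sites. The 250 upstream bases are shown for a pair of genes with lower means after injury and a pair with higher means, with any core match in capitals. In *Adra2a* (chr19:54045009-54045258, plus strand) it begins 69 bases before the start, and in the first of 4 windows of *Pde4b* (chr4:102421305-102421554, plus strand) it lies on the opposite strand, 34 bases before the start, and reads CGTCA. The first of 2 windows of *Adcy3* (chr12:4133147-4133396, plus strand) and of *Prkar2b* (chr12:32061278-32061527, minus strand) held no match.
*Adra2a*: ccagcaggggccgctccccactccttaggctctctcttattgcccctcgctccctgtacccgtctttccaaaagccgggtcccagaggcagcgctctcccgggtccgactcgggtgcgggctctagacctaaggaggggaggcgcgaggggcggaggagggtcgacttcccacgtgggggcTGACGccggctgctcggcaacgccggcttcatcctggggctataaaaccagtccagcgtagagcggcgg
*Pde4b*: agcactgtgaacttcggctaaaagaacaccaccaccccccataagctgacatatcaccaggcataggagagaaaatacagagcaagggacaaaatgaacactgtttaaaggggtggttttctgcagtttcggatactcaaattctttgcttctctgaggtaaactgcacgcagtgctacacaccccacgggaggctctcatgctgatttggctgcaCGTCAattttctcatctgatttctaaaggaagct
*Adcy3*: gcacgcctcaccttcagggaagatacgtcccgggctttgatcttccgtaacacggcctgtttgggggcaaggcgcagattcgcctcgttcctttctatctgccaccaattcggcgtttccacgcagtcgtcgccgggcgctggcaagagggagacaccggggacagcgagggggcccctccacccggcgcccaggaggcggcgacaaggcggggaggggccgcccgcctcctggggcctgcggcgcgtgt
*Prkar2b*: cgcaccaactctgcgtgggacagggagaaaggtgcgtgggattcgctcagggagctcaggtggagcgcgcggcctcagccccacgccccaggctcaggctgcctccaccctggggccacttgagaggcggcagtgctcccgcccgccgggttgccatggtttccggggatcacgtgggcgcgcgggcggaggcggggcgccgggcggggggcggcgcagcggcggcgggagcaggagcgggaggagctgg

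Among the receptors, the values of *Adrb3* were lower after injury, those of *Adra1a* were higher and those of *Adra2a* were lower, and none of these differences passed the threshold. *Adrb3* encodes the β3-adrenergic receptor, which is expressed mainly in adipocytes (chromosome 8 of mm9, 28336248 to 28340060, minus strand). It was at 0.49 and 0.75 in the sham libraries and at -0.43 and 0.13 in the injury libraries. Both injury values lay below both sham values, but the gap of 0.56 between the injury libraries was wider than the 0.36 that separated the groups. The difference of *Adrb3* was -0.77 (standard error 0.23, 95% interval from -1.34 to -0.20, adjusted p = 0.0953 by limma). Leaving out injury replicate 2 gave -1.05 with a call (adjusted p = 0.0269), and it was -0.49 when injury replicate 1 was left out.

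The level of *Adrb3* was also compared with that of general adipocyte genes in the same library. The adipocyte marker list had 14 of its 14 genes in the table, and the median of the list was 0.26 and 0.34 in the sham libraries and -0.08 and 0.33 in the injury libraries. Of these genes 1, *Plin1*, which encodes the lipid droplet protein perilipin, was called lower and none was called higher. The list was divided, with 7 means higher after injury and 7 lower, so its median is not a level shared by its genes. *Adipoq* (-0.80) and *Cfd* (-0.77) were lower by about as much as *Adrb3*, while *Lpl* (0.65) and *Slc2a4* (0.54) were higher. After subtraction of this median *Adrb3* was at 0.23 and 0.41 after sham operation and at -0.35 and -0.20 after injury. The groups still did not overlap and the spread within each was smaller, with SDs of 0.13 and 0.10 (n = 2) in place of 0.18 and 0.40. The difference relative to the adipocyte list was -0.60, against -0.77 as deposited. This centring moved the median difference of all genes by 0.18, and injury replicate 1 was the lowest library for the adipocyte list as well as for *Adrb3*. *Adrb3* was not called after this centring (adjusted p = 0.294 by limma), in a fit that gave every gene the same variance. The standard error in that fit was 0.32 for every gene, against 0.23 for *Adrb3* as deposited, so a call can be lost in it without a smaller difference.

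*Adra1a* encodes the α1A-adrenergic receptor, a calcium-mobilizing receptor known for contraction of resistance arteries (chromosome 14 of mm9, 67254088 to 67390005, plus strand). Its values were -0.62 and -0.03 after sham operation and 0.55 and 0.97 after injury. The groups were separated by 0.58, about as far as the sham libraries lay from each other (0.59). The difference of 1.09 (standard error 0.26, 95% interval from 0.45 to 1.73) had the lowest adjusted p-value of the 8 genes, 0.0622 by limma, and was not called. Its size exceeded that of 93.7% of all genes. When single libraries were left out it stayed between 0.79 and 1.39 and was not called. Smooth muscle genes had lower values after injury. Of 8 markers 7 were in the table, *Myocd* not being analysed here, and the 7 had both injury libraries below both sham libraries, with 4 called lower and a median difference of -2.12. The median of the smooth muscle list was 1.72 and 1.03 after sham operation and -1.39 and -0.20 after injury. The part of smooth muscle in the values of *Adra1a* was not tested. Relative to the adipocyte list *Adra1a* was at -0.89 and -0.37 after sham operation and at 0.63 and 0.64 after injury. That difference, 1.27, was called in the same fit with one variance for every gene (adjusted p = 0.0016 by limma).

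*Adra2a* encodes the α2A-adrenergic receptor, which restrains cAMP production and lipolysis (chromosome 19 of mm9, 54119672 to 54123472, plus strand). It was at 1.73 and -0.23 in the sham libraries and at -0.98 and -0.46 in the injury libraries. Sham replicate 1 stood far above the other three libraries, and the distance from sham replicate 2 to the nearer injury library was 0.24. The difference of -1.47 was the largest in size among the 8 genes and also had the largest standard error, 0.62 (95% interval from -3.03 to 0.09, adjusted p = 0.189 from limma). Leaving out sham replicate 1 gave -0.49, and leaving out sham replicate 2 gave -2.45. Skeletal muscle genes were likewise highest in sham replicate 1, where the median of the 4 markers found was 0.80, against -0.04 in sham replicate 2 and -0.32 and -0.40 in the injury libraries, and their part in the value of *Adra2a* was not tested.

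The receptors were set against each other within each library, where a shift common to all genes of that library cancels. Both gene pairs described in this way were chosen after their values were seen. Because the zero point of each gene is not stated, only the change between groups can be read. *Adra1a* minus *Adrb3* was -1.12 and -0.78 after sham operation and 0.99 and 0.85 after injury. The difference of this quantity was 1.86, several times the SDs of 0.24 and 0.10 (n = 2) within the groups, with an exact permutation p of 0.333, the smallest possible. *Adra1a* was higher and *Adrb3* lower in both injury libraries, and leaving out single libraries gave 1.70 to 2.03.

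**Figure D2:**
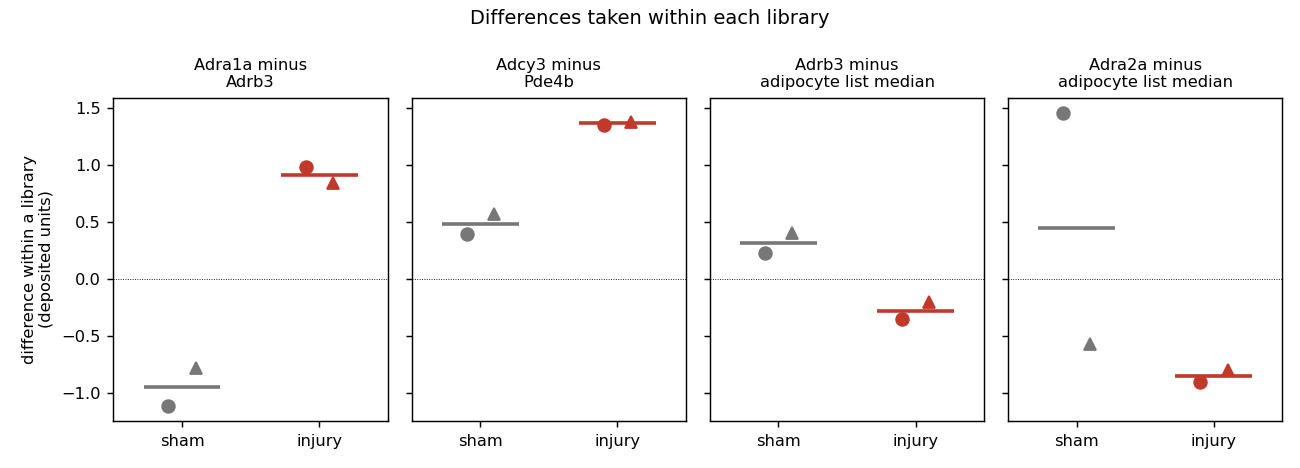
Differences taken within each library (vertical axis, deposited units), with circles for replicate 1, triangles for replicate 2 and lines for group means. The injury points of *Adra1a* minus *Adrb3* lie at 0.99 and 0.85 and those of *Adcy3* minus *Pde4b* at 1.35 and 1.38, above the sham points, while *Adra2a* relative to the adipocyte list is high in sham replicate 1 alone.

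Of the genes that pass the signal from receptor to cAMP, *Gnas* differed least and *Adcy3* had higher values after injury. *Gnas* encodes the stimulatory G protein α subunit (chromosome 2 of mm9, 174109821 to 174172245, plus strand). It was at 0.24 and 0.21 after sham operation and at 0.15 and 0.19 after injury, all 4 libraries lying within a narrow range. Its difference of -0.055 (standard error 0.13) had a 95% interval from -0.38 to 0.27 and an adjusted p-value of 0.815 from limma, and its direction turned after centring on the adipocyte list (0.12). The locus is imprinted and holds several overlapping transcripts, and the annotation places *Nespas* and *AF085738* on its opposite strand, so the value may not be that of the G protein transcript alone. Whether counting used strand is not stated in the sources used here, and without strand the reads of such partners cannot be told apart.

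*Adcy3* encodes adenylyl cyclase type 3 (chromosome 12 of mm9, 4133103 to 4213525, plus strand). Its values were 0.51 and 0.59 after sham operation and 1.21 and 0.82 after injury. The sham libraries were close together and the injury libraries were both higher, injury replicate 1 more so. The difference of 0.46 (standard error 0.18, 95% interval from 0.02 to 0.91) was not called (adjusted p = 0.157 by limma), and leaving out injury replicate 1 or 2 gave 0.27 or 0.66. The end of the gene overlaps *Cenpo*, which lies on the opposite strand. Brown adipocyte markers, in which *Adcy3* is not listed, also separated the libraries, with 7 of the 10 found called higher and list medians of 0.61 and 0.89 after sham operation against 1.72 and 1.75 after injury.

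The phosphodiesterases of the set had lower means after injury. *Pde3b* encodes the phosphodiesterase through which insulin restrains lipolysis in adipocytes (chromosome 7 of mm9, 121558795 to 121682765, plus strand). It was at 0.25 and 0.58 after sham operation and at -0.13 and 0.47 after injury, so the groups overlapped. Its difference was -0.25 (standard error 0.24, 95% interval from -0.87 to 0.36, adjusted p = 0.539 from limma) and turned to 0.047 without injury replicate 1. Relative to the adipocyte list it was -0.075. *Pde4b* encodes a cAMP-specific phosphodiesterase that is abundant in leukocytes as well as present in fat (chromosome 4 of mm9, 101760148 to 102279864, plus strand). Its values were 0.11 and 0.02 after sham operation and -0.15 and -0.56 after injury. Both injury values were lower, with the gap of 0.41 between them wider than the 0.17 between the groups. The difference of -0.42 (standard error 0.18, 95% interval from -0.88 to 0.04) was not called (adjusted p = 0.195 by limma), and leaving out injury replicate 1 or 2 gave -0.63 or -0.22. Relative to the adipocyte list the difference of *Pde4b* was -0.24 and the groups overlapped. Macrophage and neutrophil markers had higher means after injury, and the part of these cells in the values of *Pde4b* was not tested. All 8 macrophage markers were found, each with no overlap between the groups and a higher mean after injury, and 5 were called, with list medians from -1.20 to -1.15 after sham operation and from -0.14 to 0.59 after injury. Of 7 neutrophil markers 6 were found, none overlapped between the groups, 1 was called higher, and the list medians ran from -1.40 to -0.97 after sham operation and from 0.05 to 1.27 after injury.

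*Adcy3*, which makes cAMP, minus *Pde4b*, which degrades it, was 0.40 and 0.57 within the sham libraries and 1.35 and 1.38 within the injury libraries. The injury libraries agreed to within an SD of 0.018 (n = 2), although the gap between them was 0.39 for *Adcy3* and 0.41 for *Pde4b*. The difference of this quantity was 0.88, and leaving out single libraries gave 0.80 to 0.97, with an exact permutation p of 0.333.

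*Prkar2b* encodes the RIIβ regulatory subunit of protein kinase A, the main regulatory subunit of adipocytes (chromosome 12 of mm9, 32643341 to 32746161, minus strand). It was at 0.22 and 0.32 after sham operation and at 0.53 and 0.75 after injury. The groups were separated by 0.21, about the distance between the injury libraries (0.22). The difference was 0.37 (standard error 0.15, 95% interval from -0.002 to 0.75, adjusted p = 0.171 from limma). Relative to the adipocyte list the sham libraries were at -0.048 and -0.024 and the injury libraries at 0.61 and 0.42. That difference of 0.55 was not called either in the fit with the same variance for every gene (adjusted p = 0.352 from limma).

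**Figure D3:**
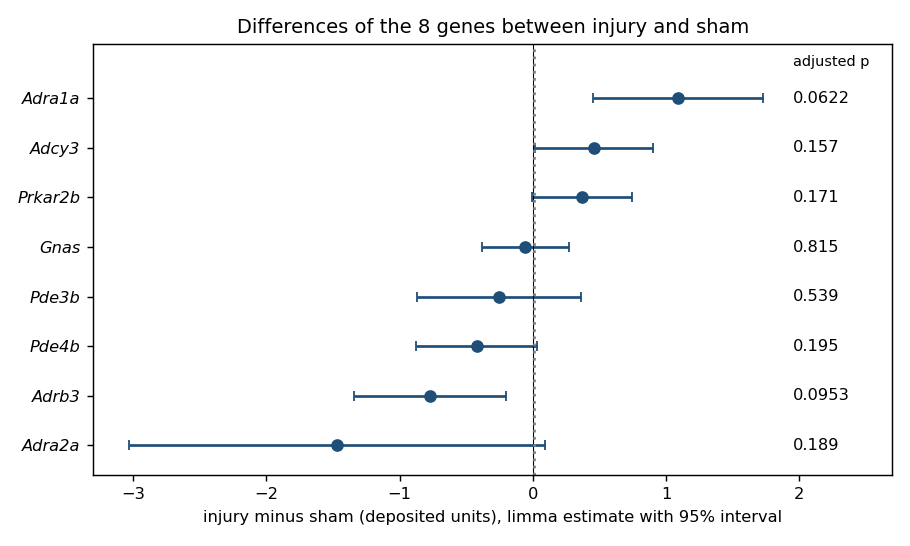
Difference between injury and sham for each gene (horizontal axis, deposited units), with points for the limma estimate, bars for its 95% interval and the adjusted p-value at the right. The intervals of *Adra1a*, *Adcy3* and *Adrb3* lie to one side of 0, and the interval of *Adra2a*, from -3.03 to 0.09, is the widest. The dotted line marks the median difference of all genes, 0.01.

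The rest of the pathway was read from lists of its genes by role, 98 of whose 127 genes were in the table. Of the 98, 5 were called higher and 6 lower by limma, none of them among the 8 genes, while 3.76% of all genes were called higher and 3.67% lower. The median difference of the 98 genes was -0.13. Leaving out sham replicate 1 left no gene called in the whole table and leaving out sham replicate 2 left 1, which was not among the 11. Leaving out injury replicate 1 ended 9 of the 11 calls (adjusted p from 0.0514 to 0.108 by limma), and *Calcrl* and *Npy1r* stayed called. Leaving out injury replicate 2 ended 1 call, that of *Akap1* (adjusted p = 0.0651).

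Among other receptors coupled to the stimulatory G protein, 7 of 13 were found, with 1 higher, 1 lower and 5 not called. *Adora2b*, an adenosine receptor, rose from -1.02 and -0.62 to 0.69 and 0.28, a difference of 1.31 (standard error 0.22, adjusted p = 0.0339 from limma). *Calcrl*, the receptor for adrenomedullin and CGRP that is characteristic of endothelium, fell from 0.91 and 1.27 to -0.72 and -0.55, a difference of -1.73 (standard error 0.18, adjusted p = 0.0285 from limma). Endothelial markers, all 7 of which were found, had lower means after injury, 2 of them called, with list medians from 0.71 to 0.82 after sham operation and from -0.07 to 0.05 after injury.

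Receptors coupled to the inhibitory G protein, all 7 of which were found, had 2 genes called lower, none higher and a median difference of -0.62. *Npy1r*, a receptor for neuropeptide Y, which sympathetic nerves release with noradrenaline, was at 1.67 and 1.23 after sham operation and at -0.95 and -0.27 after injury. The difference of *Npy1r*, -2.06 (standard error 0.28, adjusted p = 0.0291 from limma), was the largest in size of the 98 genes. Smooth muscle markers were lower too, with the medians given above. Of 8 fibroblast and adipocyte progenitor markers 3 were called lower (median difference -0.65), and of 7 Schwann cell markers 6 had lower means and 1 was called lower (median difference -0.51). The part of these cell types in the values of *Npy1r* was not tested. *Hcar1*, the lactate receptor of adipocytes, which restrains lipolysis, fell from 0.54 and 0.56 to -0.17 and -0.19, with very close replicates and a difference of -0.72 (standard error 0.13, adjusted p = 0.0394 from limma). Relative to the adipocyte list, in the fit with the same variance for every gene, the difference of *Hcar1* was -0.55 and the call was lost (adjusted p = 0.356 from limma). *Adra2a*, which couples to the same G protein, was lower as well but was not called.

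The adenylyl cyclases split. Of 10 isoforms 6 were found, and besides *Adcy3* these included *Adcy7*, which is prominent in haematopoietic cells and rose from -0.52 and -0.92 to 0.62 and 0.28, and *Adcy4*, which is found in endothelium and fell from 0.70 and 0.72 to -0.18 and -0.28. The difference of *Adcy7* was 1.17 (standard error 0.20, adjusted p = 0.0373 from limma). That of *Adcy4* was -0.94 (standard error 0.13, adjusted p = 0.0291 from limma). Relative to the adipocyte list, in the fit with the same variance for every gene, it was -0.76 and lost its call (adjusted p = 0.129 from limma). *Adcy5*, named after its values were seen, had a larger difference in size than either, -1.37 (standard error 0.31), with values of 0.68 and 0.26 after sham operation and -1.32 and -0.49 after injury, and was not called (adjusted p = 0.0574 from limma). It was called after quantile normalization (adjusted p = 0.0420 from limma), with columns scaled to one spread (0.0451), with centring on the adipocyte list (0.00353) and when injury replicate 2 was left out (0.0121).

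In the protein kinase A list 8 of 9 genes were found and 1 was called. *Pkia*, an inhibitor of the catalytic subunits, fell from 0.44 and 0.45 to -0.88 and -0.60, a difference of -1.18 (standard error 0.16, adjusted p = 0.0291 from limma). *Prkar2b* and the catalytic subunit gene *Prkaca* (named after its values were seen) had differences of 0.37 and 0.44 that were not called. Of the A-kinase anchoring proteins, 9 of 11 found, *Akap1*, which tethers the kinase to mitochondria, rose by 0.66 (standard error 0.13, adjusted p = 0.0493 from limma), from 0.12 and 0.23 to 0.84 in both injury libraries. *Akap1* lost its call with quantile normalization (difference 0.68, adjusted p = 0.0574 from limma), a robust variance prior (0.66, adjusted p = 0.0510) and a replicate block (0.66, adjusted p = 0.0780). Centred on the adipocyte list, in the fit with the same variance for every gene, its difference was 0.84 and was not called (adjusted p = 0.0789 from limma). Leaving out each library gave 0.60 to 0.72, without a call.

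The desensitisation genes, all 8 found, held 3 calls. The β-arrestins, which uncouple activated receptors, moved in opposite directions. *Arrb1* fell from 0.59 and 0.60 to -0.38 and -0.39 (difference -0.98, standard error 0.13, adjusted p = 0.0291 from limma) and *Arrb2* rose from -0.97 and -1.07 to 0.51 and 0.01 (difference 1.27, standard error 0.20, adjusted p = 0.0323 from limma). Relative to the adipocyte list, in the fit with one variance for every gene, the difference of *Arrb1* was -0.80 and was not called (adjusted p = 0.0983 from limma). *Adrbk2*, which encodes a kinase that phosphorylates activated β-adrenergic receptors, rose from 0.11 and 0.13 to 1.05 and 0.79 (difference 0.80, standard error 0.15, adjusted p = 0.0440 from limma). Macrophage markers were higher and endothelial markers lower after injury, with the list medians given above, and their part in these calls was not tested. The adipocyte list medians overlapped between the groups.

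No gene was called among the G protein subunits (14 found), the cAMP phosphodiesterases (12), the Epac exchange factors (2), the CREB family and coactivators (7), the cAMP response genes (10) or the genes of noradrenaline synthesis and clearance (6). At an unadjusted p-value under 0.05 limma gave 6, 5, 2, 1, 3 and 1 genes in these lists, against 29.5% of all genes. The gene with the widest difference in each was *Gng2* (0.75, adjusted p = 0.0914), *Pde4a* (0.64, adjusted p = 0.0524), *Rapgef3* (-0.47, adjusted p = 0.128), *Crtc1* (-0.50, adjusted p = 0.0816), *Ucp1* (1.55, adjusted p = 0.164) and *Maoa* (-0.56, adjusted p = 0.0659), all from limma. *Gng2* was called relative to the adipocyte list, in the fit with the same variance for every gene (0.93, adjusted p = 0.0391 from limma). Leaving out injury replicate 1 or 2 gave 0.49 or 1.02. Among the phosphodiesterases *Pde4a* was at 0.07 and 0.12 after sham operation and at 0.80 and 0.68 after injury, opposite to *Pde4b*, and it was called after quantile normalization (adjusted p = 0.0470 from limma) and with columns scaled to one spread (0.0443). The difference between them was not tested. For *Ucp1*, leaving out sham replicate 1 or 2 gave 0.66 or 2.45, and relative to the adipocyte list it was 1.73 and was called in the fit with one variance for every gene (adjusted p = 3.05e-06 from limma). *Th* and *Dbh*, the defining genes of noradrenaline synthesis, were not analysed here.

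**Figure D4:**
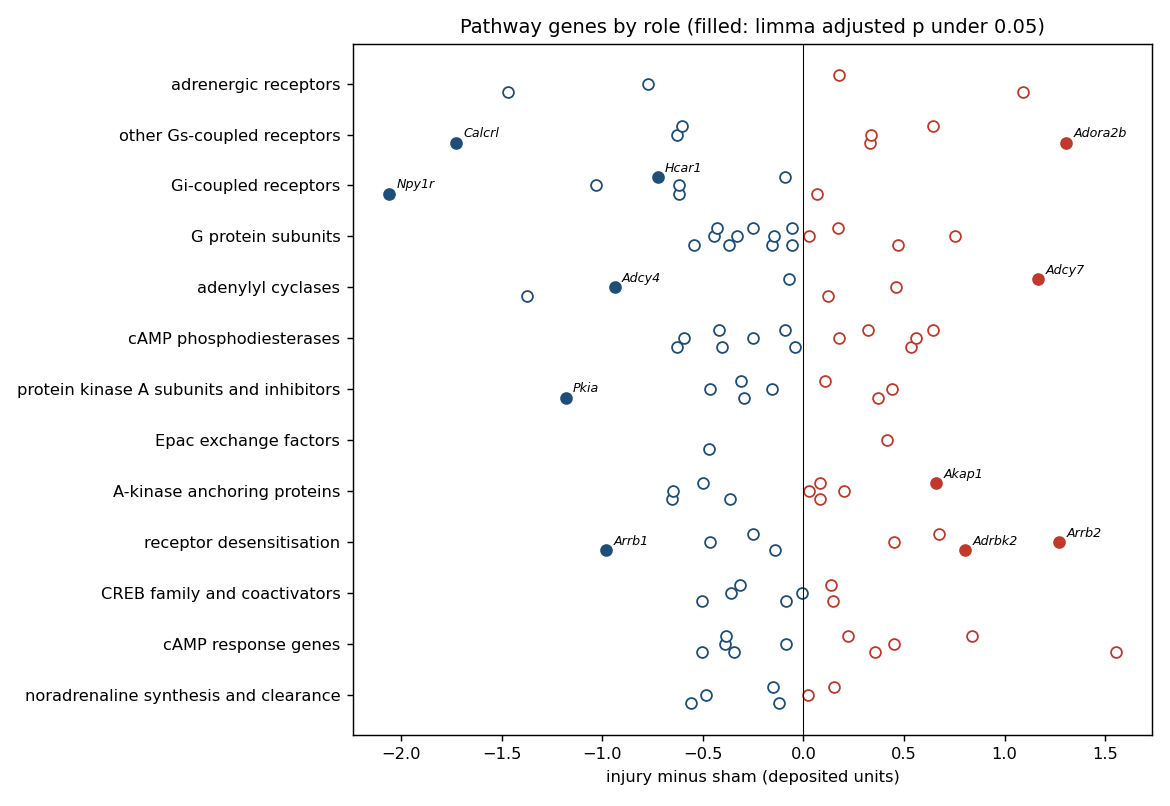
Difference between injury and sham (horizontal axis, deposited units) for the 98 pathway genes in the table, one row per role, with red for higher and blue for lower means after injury and filled, named points for genes with an adjusted p-value under 0.05 from limma. The 11 named points lie in 6 of the 13 roles, and the adrenergic receptor row holds none. A gene in more than one list is drawn in each.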

How the data were processed

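RNA-seq of PVAT around the FA was compared between 2 injury and 2 sham libraries. Per the submitters' processing notes and the study's methods, reads from a stranded mRNA kit were checked with FastQC 0.11.8, cleaned with cutadapt 1.18 and Trimmomatic 0.39, aligned to mm9 with STAR 2.6.0a and counted with featureCounts. The authors' notes also name DESeq2 1.28.0 and R 3.6.0. The deposited values are a signed score per gene and library (-2.27 to 6.45, 50.5% below 0), not counts, and the step from counts to this score is not given in the sources used here. No pseudocount or filter on low values therefore applied.

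limma 3.58.1 in R 4.3.3 was fitted to all 12661 genes with the group as the only term (2 residual and 3.48 prior degrees of freedom) and was tested on simulated data. Groups came from the sample titles. The genes and lists were chosen with earlier results of these data known, and lists are given as counts and medians without a test. Pathway genes were named where called, at most 4 a list by adjusted p-value, or otherwise as the widest difference of the list. Genes most like a called gene of the set were to be named, and none of the set was called. The alternatives were a replicate block, each library left out, quantile normalization, columns scaled to one spread, centring on the adipocyte list, a robust variance prior and a threshold of 0.1. Gene coordinates follow GENCODE on NCBIM37, the same assembly as mm9, and promoters are from RefSeq on GRCm38.p6. Tables and plots used Python 3.11.15, pandas 2.3.3, numpy 2.4.6 and matplotlib 3.10.9. The values of 1 further pathway gene are not reported here.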

Additional observations from a re-analysis of the deposited data

How the results depend on the processing

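Over the fits to all 4 libraries the direction and side of the threshold of the 8 genes were kept in 42 of 48 results. At a threshold of 0.1 the difference of *Adrb3* (-0.77) and that of *Adra1a* (1.09) were called, so 1 gene of the set was called higher and 1 lower. Centred on the adipocyte list, *Adra1a* (1.27) and *Adra2a* (-1.29, adjusted p = 0.0012 from limma) were called, again 1 higher and 1 lower, and *Gnas* turned to 0.12. That fit shares one variance among all genes, so it takes no account of the wide spread of *Adra2a*, and it called 893 genes of the table higher. With the replicate block *Adra1a* was called (difference 1.09, adjusted p = 0.0378 from limma), which made 1 gene of the set called higher. The block left 303 genes of the table called lower, and *Adora2b*, *Hcar1*, *Akap1* and *Adrbk2* lost their calls with it. The labels do not say whether the replicate numbers pair the libraries. The correlation of deviations, -0.09 across genes, cannot decide it with 2 libraries per group. The threshold of 0.1 called 2317 genes, 1166 higher and 1151 lower, against 941, 476 and 465. With single libraries left out, the lone library of a group being assumed to vary like the other group, the genes called numbered from 0 to 1790, the higher ones from 0 to 943 and the lower ones from 0 to 847. Of the 8 genes, 0 to 1 were then called lower, *Adrb3* ranged from -1.05 to -0.49 and *Pde3b* from -0.55 to 0.047. Among the 17 other genes named by the rule, 84 of 102 results kept direction and side, 10 lost a call, 8 gained one and none reversed. *Adcy5* and *Prkaca* are not among these, and the calls that *Adcy5* gained are given with its values. Depth is unknown, so precision rests on 2 libraries per group.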
